A study of Mus musculus with 8 samples.

Results

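The genes described here are 32 genes of fatty acid oxidation and ketone body formation. They were chosen by symbol from the pathway, without a cutoff on their values but with earlier results of these data known. All 32 were among the 23467 genes of the RNA-sequencing table, and all 32 were expressed highly enough to be tested. The cells were hepatoblasts, the fetal liver progenitors of hepatocytes and biliary epithelial cells (BECs), taken from livers of B6;129 mixed strain mice at E14.5. They were sequenced as cultured hepatoblasts on collagen (iHBs) or after differentiation. Hepatocytes were obtained with Oncostatin M at 12.5 ng per ml over 5 days (iHPs), and BECs by 14 days on Matrigel (iBECs). The 5 days are those of the labels, and the study's methods give a longer treatment. Control cells were labelled wild type. The other cells were labelled Lats1-/-;Lats2f/fl;Alb-cre (L1L2_Alb), that is, without *Lats1* in every cell and with *Lats2* removed where Cre is made from the albumin promoter. Cells in these cultures that do not use this promoter would keep *Lats2*. The medium of both genotypes held serum, human EGF, human HGF, insulin and dexamethasone, according to the study's methods. Of 8 libraries, 3 were controls, 1 for each stage, and 5 were labelled L1L2_Alb, with 1 library of iHBs, 2 of iHPs and 2 of iBECs.

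In fatty acid oxidation, long-chain fatty acids enter the cell, are joined to coenzyme A and are carried into the mitochondrion as carnitine esters, where a spiral of dehydrogenation, hydration, further dehydrogenation and thiolysis releases acetyl-CoA. Peroxisomes run a related spiral on very long and branched chains and pass the shortened chains on. In the fasted liver the acetyl-CoA is turned into ketone bodies for other organs, and many genes of the pathway are known targets of the nuclear receptor PPAR alpha. The 32 genes were placed by role as 21 mitochondrial genes, 7 peroxisomal genes, 1 ketogenic gene (*Bdh1*) and 3 genes of fatty acid entry and activation. The 21 counted as mitochondrial include *Slc22a5*, a carnitine transporter of the plasma membrane, which was grouped with the carnitine shuttle.

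Values are RPKM, reads scaled to gene length and library size, and steps in the low values gave 18436865 to 33229075 reads per library. The study reports that expression of LATS1 and LATS2 was reduced in its cultured L1L2_Alb cells, with YAP target genes raised. Its main text does not say whether those were the cultures sequenced. In the RNA values used here the targeted genes did not follow the labels. *Lats1* ranged from 5.38 to 11.2 RPKM in controls and from 7.12 to 22.7 RPKM in libraries labelled L1L2_Alb. *Lats2* ranged from 6.90 to 10.1 RPKM in controls and from 10.9 to 27.6 RPKM in the others. It was called higher (0.90, adjusted p = 0.0312, limma), in 5 of 5 libraries. Values per gene do not separate exons missing from the mutant alleles from the other exons, so the genotype of each library is given as labelled, and every direction below rests on that label. The YAP target genes *Cyr61* (1.93, adjusted p = 0.00222, limma) and *Ctgf* (1.73, adjusted p = 0.00796, limma) rose in 5 of 5 libraries labelled L1L2_Alb, *Cyr61* under 11 of 11 alternatives and *Ctgf* under 9. Of 9 hepatocyte markers, 6 were called lower in libraries labelled L1L2_Alb (limma), and 8 had a negative log2 fold change. *Apoa1* went the other way without a call (0.65, adjusted p = 0.35, limma). Its level was 2451 RPKM in control iHBs and 8670 RPKM in those labelled L1L2_Alb. In iHPs it was 4249 RPKM against 8351 and 6225 RPKM, and in iBECs 4404 RPKM against 4170 and 2889 RPKM. All 9 markers summed to 15248 to 35584 RPKM in controls and 10926 to 18337 RPKM in the others, *Apoa1* included. That sum was higher in control iBECs (35584 RPKM) than in control iHPs (25645 RPKM), against the stage label. The 7 mesenchymal markers summed to 2596 to 4611 RPKM in controls and 735 to 3452 RPKM in libraries labelled L1L2_Alb. In the common fit all 7 were lower and 0 called. By stage the direction varied, with a sum of 4611 RPKM in control iHBs and 1627 RPKM in those labelled L1L2_Alb. In iHPs it was 2866 RPKM against 735 and 1190 RPKM, and in iBECs 2596 RPKM against 3452 and 1624 RPKM. The 5 macrophage markers found summed to 1083 to 1967 RPKM and 593 to 2595 RPKM, with 0 called. Their sum was 1967 RPKM in control iHBs and 1576 RPKM in those labelled L1L2_Alb. In iHPs it was 1206 RPKM against 593 and 1181 RPKM, and in iBECs 1083 RPKM against 2436 and 2595 RPKM. The part of these cells in the results below was not tested, and in RNA of whole cultures fewer cells of a type cannot be told apart from less RNA per cell.

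Levels per gene length spread over more than an order of magnitude in the controls. The highest was *Etfb*, a subunit of the flavoprotein that takes electrons from the acyl-CoA dehydrogenases, at 118 to 136 RPKM. Next came *Acadvl* (91.2 to 125 RPKM), *Acaa2* (86.8 to 123 RPKM), *Acadl* (97.0 to 121 RPKM) and *Acadm* (60.4 to 118 RPKM), whose ranges overlapped. At the low end were *Ehhadh* (2.52 to 7.25 RPKM), *Slc22a5* (3.73 to 5.36 RPKM) and *Cpt1b*, the muscle form of carnitine palmitoyltransferase 1 (1.04 to 5.44 RPKM), again with overlapping ranges. *Cpt1a*, the liver form of that enzyme, ranged from 24.9 to 51.2 RPKM. Of 5 muscle markers, *Myh6*, *Myh7*, *Ckm* and *Actc1* did not exceed 0.192 RPKM in any library, and *Des*, which is also among the mesenchymal markers, ranged from 11.8 to 68.7 RPKM. Over all 8 libraries the steadiest gene was *Acaa1a*, whose highest value was 1.28 times its lowest, and the most variable were *Fabp1*, *Cd36* and *Pdk4* with ratios of 79.4, 36.4 and 32.1.

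**Figure D1:**
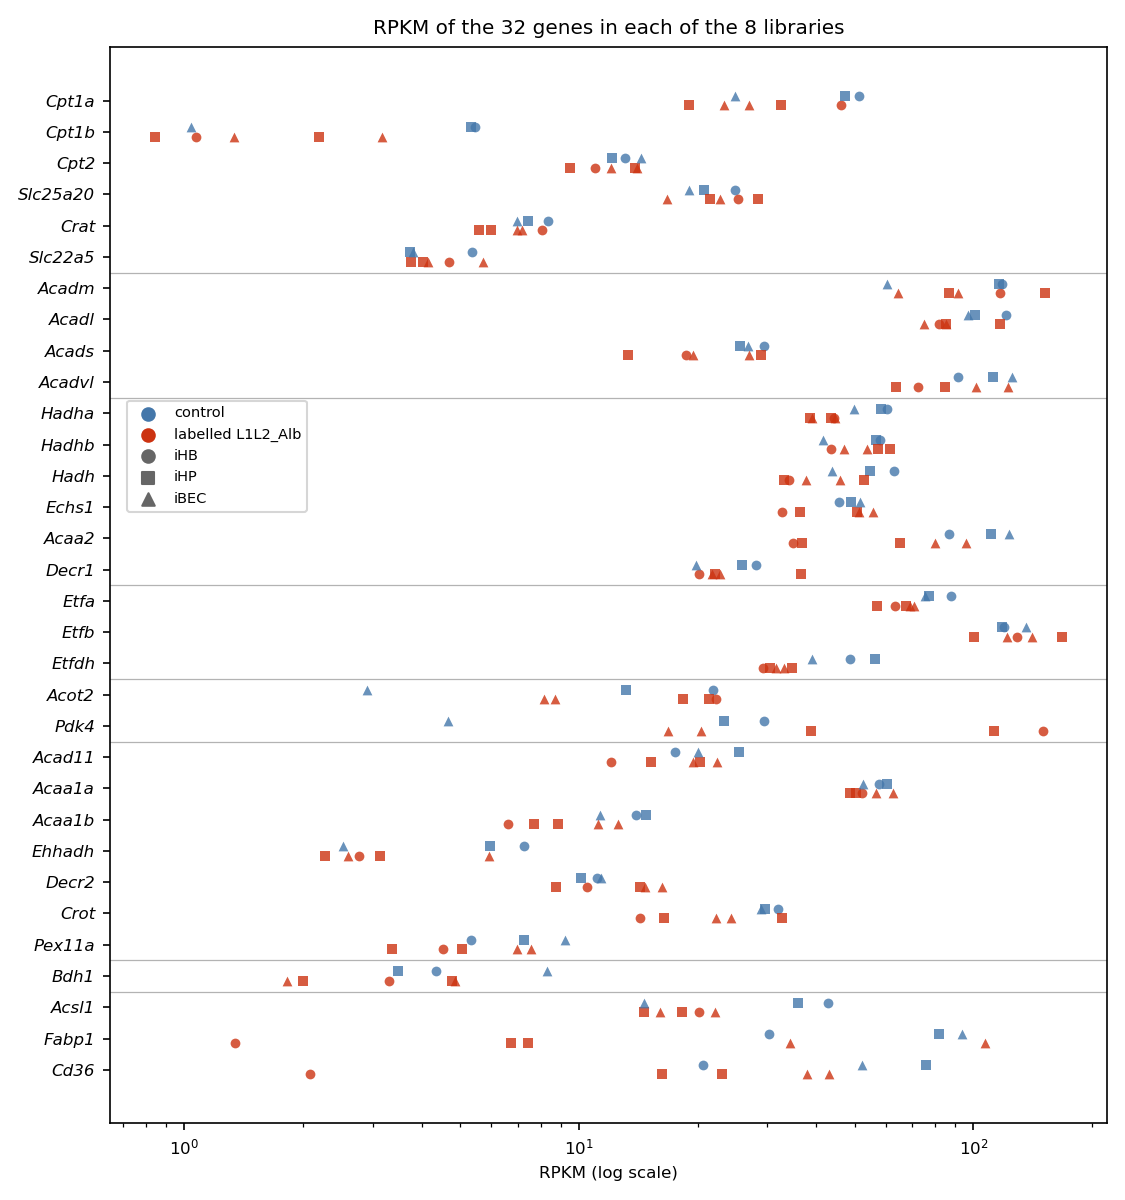
RPKM (log scale) of the 32 genes in each of the 8 libraries, with genes in rows, lines between roles, colour for genotype as labelled and marker shape for stage. *Fabp1*, *Cd36* and *Pdk4* spread from 1.35 to 107, 2.08 to 75.7 and 4.67 to 150.1 RPKM, whereas *Acaa1a* stays between 48.7 and 62.4 RPKM.

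To ask which of these genes depended on genotype, the effect common to the 3 stages was fitted with limma on log2(RPKM + 1), with stage in the model. *Pdk4* rose, and *Fabp1*, *Cd36* and *Acaa2* fell in libraries labelled L1L2_Alb. These 4 of 32 genes (12.5%) passed an adjusted p of 0.05, against 9.57% of the 13421 genes tested, so the share called was near that of all genes. The 3 genes called lower compare with 3.37% of all genes called lower, and the 1 called higher with 6.2%. Of all calls 64.8% were higher as deposited, 51.5% once scaled to the upper quartile and 53.0% once quantile-normalized. Without iBECs 37.5% of 1396 calls were higher, so the majority turned to lower. Counted without regard to the test, 24 of the 32 genes had a negative log2 fold change and 8 a positive one, with a median of -0.33 against 0.06 over all genes. The effect was not called as different between stages for any of the 32 genes (limma, 0 of 32, 3 at an unadjusted p under 0.05), and 0% of all genes were. Without a filter on low values 0 of the 32 genes passed, without iHBs 0, and without iHPs 1 (*Pdk4*). Leaving out L1L2_Alb iHP replicate 1, iHP replicate 2 or iBEC replicate 2 left 1, 2 and 2.

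**Figure D2:**
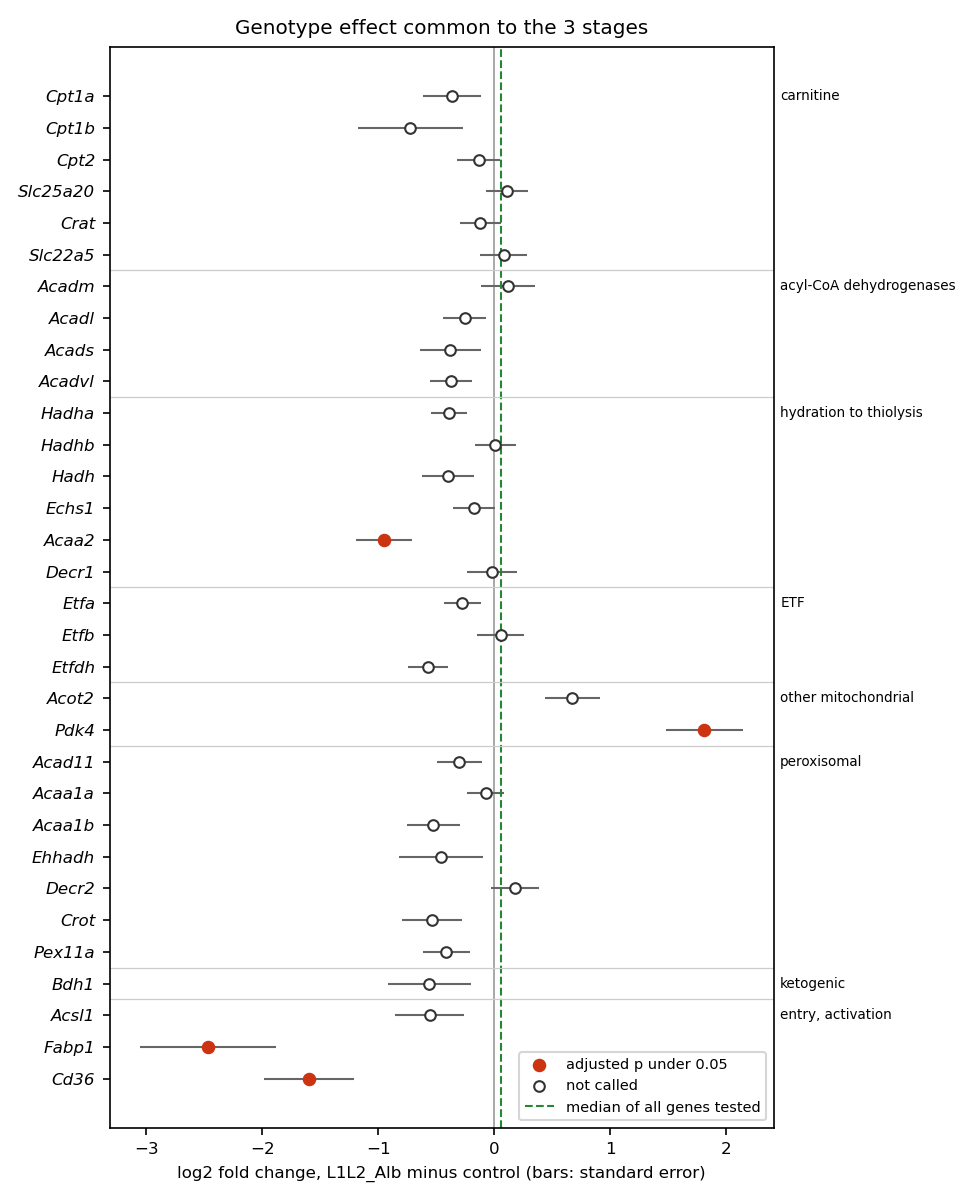
Log2 fold change between libraries labelled L1L2_Alb and controls over the 3 stages for each of the 32 genes (points, with standard errors as bars), ordered by role. Filled points passed an adjusted p of 0.05 in limma, namely *Acaa2* at -0.95, *Pdk4* at 1.81, *Fabp1* at -2.47 and *Cd36* at -1.60, and the dashed line is the median of all genes tested, 0.06.

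Below, values of a stage begin with the control, and those of libraries labelled L1L2_Alb follow "against", replicate 1 first. The deepest decreases of the common fit were those of *Fabp1* and *Cd36*, 2 of the 3 genes of fatty acid entry and activation. The other, *Acsl1*, fell less (-0.56). *Fabp1*, the liver fatty acid binding protein that carries fatty acids in the cytosol, gave 30.3 against 1.35 RPKM in iHBs, from 424 and 19 reads. The iHP values were 81.9 against 6.72 and 7.44 RPKM, and the iBEC values 93.8 against 34.2 and 107 RPKM. Genotypes were thus far apart in iHBs and iHPs, while in iBECs the control lay between the other libraries. The common log2 fold change was -2.47 (SE 0.59, adjusted p = 0.0368, limma), with 4 of 5 libraries lower. It was -3.52 (adjusted p = 0.0026, limma) without iBECs. The call was lost without iHBs (adjusted p = 0.172), without iHPs (adjusted p = 0.294) and without the filter on low values. It was also lost without either iHP library or iBEC replicate 1 labelled L1L2_Alb (adjusted p from 0.0573 to 0.0788). Thus 5 of 11 alternatives kept the call.

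*Cd36*, a membrane protein for uptake of long-chain fatty acids that macrophages and endothelial cells also make, gave 20.7 against 2.08 RPKM in iHBs. It gave 75.7 against 16.2 and 23.0 RPKM in iHPs and 52.3 against 43.0 and 37.8 RPKM in iBECs. All 5 libraries lay below the control of their stage, with the widest gap in iHBs. The common log2 fold change was -1.60 (SE 0.39, adjusted p = 0.039, limma) and -2.30 (adjusted p = 0.0098) without iBECs. The call was lost without iHBs (adjusted p = 0.164), without iHPs (adjusted p = 0.265) and without the filter on low values. It was also lost without either iHP library or iBEC replicate 2 labelled L1L2_Alb (adjusted p from 0.0638 to 0.081). Thus 5 of 11 alternatives kept the call. The 5 endothelial markers summed to 1.54 to 5.30 RPKM in controls and 1.73 to 4.39 RPKM in the others. Among them *Pecam1* gave 4.01 against 0.867 RPKM in iHBs and 4.18 against 0.339 and 0.244 RPKM in iHPs. *Kdr* went the other way, with 0.612 against 2.15 RPKM in iHBs, 0.334 against 1.42 and 1.42 RPKM in iHPs and 0.16 against 0.773 and 2.38 RPKM in iBECs. All 5 libraries labelled L1L2_Alb were above all 3 controls for it, and neither gene was called (*Kdr* adjusted p = 0.0541, limma). Of the adipocyte markers, *Adipoq*, *Plin1* and *Lep* did not exceed 0.087 RPKM. *Fabp4*, which endothelial cells and macrophages also make, gave 50.3 against 16.8 RPKM in iHBs, without a call. It gave 192 against 75.4 and 27.7 RPKM in iHPs and 134 against 231 and 181 RPKM in iBECs. *Cidec*, the fifth adipocyte marker, gave 2.54 against 0.88 RPKM in iHBs, 3.93 against 1.05 and 0.248 RPKM in iHPs and 0.46 against 1.57 and 0.616 RPKM in iBECs, without a call. The part of such cells in the *Cd36* values was not tested.

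*Acsl1*, which joins fatty acids to coenzyme A, gave 42.8 against 20.2 RPKM in iHBs, 35.9 against 18.3 and 14.6 RPKM in iHPs and 14.6 against 22.1 and 16.1 RPKM in iBECs. The labelled L1L2_Alb values were below the control in iHBs and iHPs and above it in iBECs. *Acsl1* did not pass the common test (-0.56, SE 0.30, adjusted p = 0.282, limma) and did without iBECs (-1.07, adjusted p = 0.0384).

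Promoters are shown for *Fabp1*, *Cd36* and *Pdk4*, the called genes that have an entry in the RefSeq promoter table (build GRCm38.p6), to set their sequence beside their change with genotype. Each runs 5′ to 3′ on the strand of the gene, from 250 bases before the start of transcription to 50 after. *Fabp1* is at chr6:71199629-71199928 (plus strand), *Cd36* at chr5:17835847-17836146 (minus strand) and *Pdk4* at chr6:5496229-5496528 (minus strand). Capitals mark matches on either strand to AGGTCA (a hexamer bound by nuclear receptors), to a direct repeat of this hexamer with 1 base between (DR1, with any base at the fourth position of each copy, the arrangement of PPAR and HNF4A sites), to CAAAGTCCA (an HNF4A site) or to GGAATG (a TEAD site).
Fabp1: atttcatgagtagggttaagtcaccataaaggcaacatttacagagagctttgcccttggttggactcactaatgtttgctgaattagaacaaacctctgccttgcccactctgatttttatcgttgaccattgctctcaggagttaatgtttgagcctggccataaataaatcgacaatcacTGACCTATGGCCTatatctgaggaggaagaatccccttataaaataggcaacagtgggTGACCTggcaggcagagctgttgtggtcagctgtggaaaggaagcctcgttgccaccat
Cd36: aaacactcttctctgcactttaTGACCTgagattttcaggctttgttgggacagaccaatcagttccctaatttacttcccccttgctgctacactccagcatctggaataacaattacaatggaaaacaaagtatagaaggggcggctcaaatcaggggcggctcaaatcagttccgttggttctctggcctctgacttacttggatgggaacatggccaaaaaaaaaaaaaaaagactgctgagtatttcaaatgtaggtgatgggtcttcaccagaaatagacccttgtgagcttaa
Pdk4: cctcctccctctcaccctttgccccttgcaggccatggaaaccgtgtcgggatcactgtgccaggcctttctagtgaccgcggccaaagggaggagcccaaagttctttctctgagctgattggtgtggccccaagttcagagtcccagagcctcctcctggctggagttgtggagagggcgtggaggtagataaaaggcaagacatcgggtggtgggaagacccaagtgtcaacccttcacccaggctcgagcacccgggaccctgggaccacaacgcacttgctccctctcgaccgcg
The *Fabp1* promoter held the direct repeat as TGACCTATGGCCT, read on the strand shown, from position -67 relative to the start. It includes a hexamer, and a further hexamer stood at position -9. The *Cd36* promoter held 1 hexamer at position -228, and the *Pdk4* promoter matched none of these letters. Over 32851 promoters of the same length, 0.381% held the direct repeat, 16.3% the hexamer, 0.475% the HNF4A letters and 14.7% the TEAD letters. The table had 30 promoters for 28 of the 32 genes, without *Acaa2*, *Cpt1b*, *Crat* and *Decr1*. Of these, 1 held the direct repeat (*Fabp1*), 6 the hexamer (*Acadm*, *Acadvl*, *Cd36*, *Cpt1a*, *Echs1* and *Fabp1*), 0 the HNF4A letters and 6 the TEAD letters (*Acsl1*, *Cpt1a*, *Ehhadh*, *Etfb*, *Pex11a* and *Slc25a20*). A match of letters does not show that a factor binds.

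*Pdk4*, the kinase that inactivates pyruvate dehydrogenase and so spares glucose while fat is burned, was the 1 gene called higher. It gave 29.4 against 150.1 RPKM in iHBs, 23.3 against 113 and 38.7 RPKM in iHPs and 4.67 against 20.4 and 16.8 RPKM in iBECs. Within each stage the genotypes did not overlap, and the iHP replicates lay far from each other. The common log2 fold change was 1.81 (SE 0.34, adjusted p = 0.016, limma), with 5 of 5 libraries higher. The call was lost without iHBs (1.62, adjusted p = 0.0955), without iBECs (adjusted p = 0.0554) and without the filter on low values (adjusted p = 0.0522).

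*Acot2*, a mitochondrial thioesterase that frees fatty acids from coenzyme A, gave 21.9 against 22.2 RPKM in iHBs, 13.2 against 18.4 and 21.3 RPKM in iHPs and 2.90 against 8.16 and 8.70 RPKM in iBECs. All 5 libraries were above their control, by little in iHBs and most in iBECs, and the test was not passed (0.67, SE 0.24, adjusted p = 0.116, limma). It has a near-identical neighbour, *Acot1*, and how reads of such copies were assigned is not given in the sources used here.

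**Figure D3:**
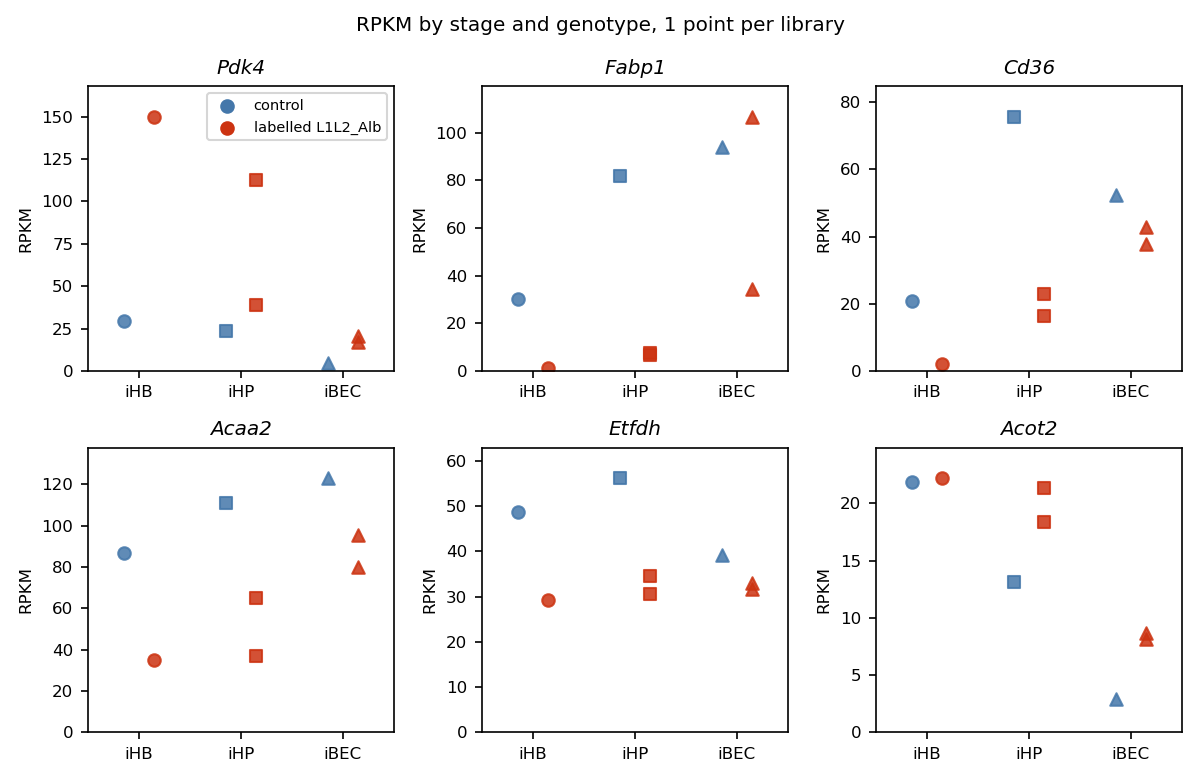
RPKM (linear axes from 0) of *Pdk4*, *Fabp1*, *Cd36*, *Acaa2*, *Etfdh* and *Acot2* by stage, with 1 point per library and colour for genotype as labelled. *Fabp1* is at 1.35 to 7.44 RPKM in the labelled L1L2_Alb iHBs and iHPs and at 34.2 and 107 RPKM in the iBECs, and all 5 *Etfdh* values of these libraries lie below the 3 controls.

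Among 10 enzymes of the mitochondrial spiral, 1 was called. *Acaa2*, the thiolase that releases acetyl-CoA at the end of a turn, gave 86.8 against 35.0 RPKM in iHBs, 111 against 36.8 and 65.1 RPKM in iHPs and 123 against 95.7 and 79.9 RPKM in iBECs. All 5 libraries lay below the control of their stage, by more in iHBs and iHPs than in iBECs. The common log2 fold change was -0.95 (SE 0.24, adjusted p = 0.0469, limma), close to the threshold, and 5 of 11 alternatives were under it, with adjusted p from 0.0186 to 0.205. The call was lost without iHBs (adjusted p = 0.205), without iHPs (adjusted p = 0.182), without L1L2_Alb iHP replicate 1 (adjusted p = 0.0631) and without iBEC replicate 2 (adjusted p = 0.0898).

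For *Etfdh*, *Etfa* and *Hadha* all 5 libraries labelled L1L2_Alb lay below all 3 controls, 3 of 32 genes against 3.7% of all genes tested. *Etfdh*, which passes electrons from the flavoprotein to ubiquinone, gave 48.8 against 29.3 RPKM in iHBs, 56.2 against 30.6 and 34.6 RPKM in iHPs and 39.1 against 33.0 and 31.7 RPKM in iBECs. The log2 fold change was -0.57 (SE 0.17, adjusted p = 0.0713, limma), and the threshold was passed after scaling to the upper quartile (-0.69, adjusted p = 0.0335) or quantile normalization (-0.76, adjusted p = 0.0207). *Etfa*, the partner of *Etfb* in the flavoprotein, gave 87.6 against 63.3 RPKM in iHBs, 77.2 against 57.0 and 67.5 RPKM in iHPs and 75.2 against 69.1 and 70.6 RPKM in iBECs (-0.28, SE 0.16, adjusted p = 0.316, limma). *Hadha*, the alpha subunit of the trifunctional protein for long chains, gave 60.4 against 44.3 RPKM in iHBs, 58.4 against 38.6 and 43.7 RPKM in iHPs and 49.9 against 38.9 and 44.5 RPKM in iBECs (-0.39, SE 0.16, adjusted p = 0.151, limma), with a call after quantile normalization alone (-0.61, adjusted p = 0.0282). For these 3 genes the gaps were narrow beside those of *Acaa2*. *Hadhb*, the beta subunit, overlapped between genotypes at 41.6 to 58.1 RPKM in controls and 43.5 to 61.3 RPKM in the others, and its log2 fold change of 0.01 (SE 0.18) became -0.10 and -0.21 under these scalings.

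The other enzymes of the spiral did not pass the test. The acyl-CoA dehydrogenases, which start each turn on very long, long, medium and short chains, had log2 fold changes of -0.37 (*Acadvl*, SE 0.18, 5 of 5 libraries lower), -0.26 (*Acadl*, SE 0.18), 0.12 (*Acadm*, SE 0.23, and -0.12 after quantile normalization) and -0.38 (*Acads*, SE 0.26). In iHPs *Acads* gave 25.6 against 13.3 and 28.9 RPKM, and *Acadm* 116 against 86.9 and 152 RPKM, so that the replicates fell on either side of the control. The hydratase *Echs1* (-0.18, SE 0.18), the short-chain dehydrogenase *Hadh* (-0.40, SE 0.22), the dienoyl-CoA reductase *Decr1* (-0.02, SE 0.22) and *Etfb* (0.06, SE 0.20, and -0.06 after upper-quartile scaling) also overlapped between genotypes.

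Of the 6 genes of carnitine transport, 0 were called (limma, 0 at an unadjusted p under 0.05). *Cpt1a*, which makes the carnitine esters and limits entry into the mitochondrion, gave 51.2 against 46.2 RPKM in iHBs, 47.4 against 32.5 and 19.03 RPKM in iHPs and 24.9 against 23.3 and 26.9 RPKM in iBECs (-0.36, SE 0.25, adjusted p = 0.4, limma). *Cpt1b* gave 5.44 against 1.07 RPKM in iHBs, 5.32 against 2.19 and 0.843 RPKM in iHPs and 1.04 against 3.18 and 1.33 RPKM in iBECs. It lay below the control in iHBs and iHPs and above it in iBECs, and it passed the test without iBECs (-1.49, adjusted p = 0.034) and not in the common fit (-0.73, SE 0.45, adjusted p = 0.359, limma). The palmitoyltransferase of the inner membrane *Cpt2* (-0.14, SE 0.19), the acylcarnitine carrier *Slc25a20* (0.11, SE 0.18), carnitine acetyltransferase *Crat* (-0.12, SE 0.18) and the carnitine transporter of the plasma membrane *Slc22a5* (0.08, SE 0.20) lay within 1 SE of 0, and the sign of *Slc25a20* and *Slc22a5* turned after upper-quartile scaling.

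Of the 7 peroxisomal genes, 0 were called (limma, 1 at an unadjusted p under 0.05), and 6 had a negative log2 fold change. *Acaa1b*, a peroxisomal thiolase, gave 14.0 against 6.60 RPKM in iHBs, 14.8 against 7.70 and 8.83 RPKM in iHPs and 11.3 against 12.5 and 11.2 RPKM in iBECs (-0.53, SE 0.23, adjusted p = 0.187, limma). The genotypes were apart in iHBs and iHPs only. Its close copy *Acaa1a* ranged from 52.5 to 60.3 RPKM in controls and from 48.7 to 62.4 RPKM in the others (-0.07, SE 0.16), and the split of reads between the copies is uncertain. *Ehhadh*, the bifunctional enzyme, gave 7.25 against 2.77 RPKM in iHBs, 5.96 against 3.14 and 2.28 RPKM in iHPs and 2.52 against 5.93 and 2.61 RPKM in iBECs (-0.46, SE 0.36). *Crot*, which makes carnitine esters of chains leaving the peroxisome, ranged from 29.0 to 31.98 RPKM in controls and from 14.3 to 32.7 RPKM in the others (-0.54, SE 0.26). *Pex11a*, which promotes peroxisome division, was below the control in 5 of 5 libraries (-0.41, SE 0.20, adjusted p = 0.249, limma). The acyl-CoA dehydrogenase *Acad11* (-0.30, SE 0.19) and the reductase *Decr2* (0.18, SE 0.21) overlapped between genotypes.

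The ketogenic gene *Bdh1*, which reduces acetoacetate to beta-hydroxybutyrate, was low throughout. It gave 4.34 against 3.30 RPKM in iHBs, 3.48 against 2.00 and 4.77 RPKM in iHPs and 8.32 against 1.82 and 4.86 RPKM in iBECs. The iHP replicates fell on either side of the control, and the test was not passed (-0.56, SE 0.36, adjusted p = 0.369, limma). Of 5 further genes of ketone body synthesis and use, 0 were called (limma, 3 at an unadjusted p under 0.05).

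By compartment, the median log2 fold change of the common fit was -0.18 over the 21 mitochondrial genes, -0.41 over the 7 peroxisomal genes and -1.60 over the 3 entry genes, beside -0.56 for *Bdh1* and 0.06 over all genes. The gap between mitochondrial and peroxisomal genes was not stable. After quantile normalization both medians were -0.38, without iHPs they were -0.17 and -0.20, and without L1L2_Alb iHP replicate 1 the mitochondrial median was -0.10. In the library labelled L1L2_Alb iHB the medians were -0.41 for mitochondrial and -0.50 for peroxisomal genes, and 28 of the 32 genes were below the control, as were 56.9% of all genes, whose median was -0.09. In iHPs they were -0.42 and -0.70 in replicate 1 and 0.05 and -0.31 in replicate 2, so the mitochondrial median was below 0 in 1 of the 2 libraries, and 24 of the 32 genes were below the control on average against 50.4% of all genes. In iBECs they were -0.03 and 0.15 in replicate 1 and 0.04 and -0.02 in replicate 2, and 15 of the 32 genes were below the control on average against 23.7% of all genes. The median of all genes in iBECs was 0.25 as deposited and 0.07 after upper-quartile scaling. After that scaling 28, 26 and 23 of the 32 genes were below the control in iHBs, iHPs and iBECs, in iBECs against 41.4% of all genes, and the iBEC medians were -0.19 for mitochondrial and -0.13 for peroxisomal genes.

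**Figure D4:**
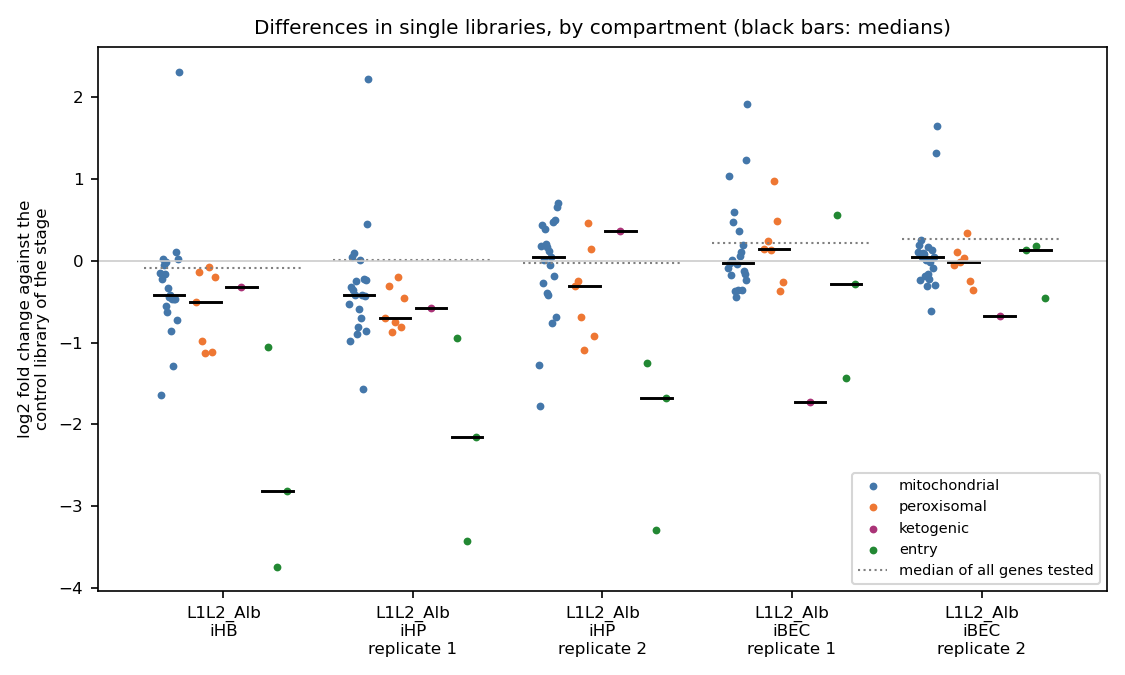
Log2 fold change of each gene in each library labelled L1L2_Alb against the single control library of its stage, with colour for compartment, black bars for compartment medians and dotted lines for the median of all genes tested. The peroxisomal median is -0.50 in iHBs, -0.70 and -0.31 in iHPs and 0.15 and -0.02 in iBECs.

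Single stages were tested in the fit of 6 conditions, where the spread comes from the paired iHP and iBEC libraries labelled L1L2_Alb. The lone controls and the lone iHB library labelled L1L2_Alb are assumed to vary like them. In iHBs 1 library was set against 1, so no spread within iHBs was measured. This test was added after the data were seen. In iHBs *Cd36* was called lower (-2.82, SE 0.43, adjusted p = 0.0456, limma), 1 of 32 genes against 0.611% of all genes. In iHPs *Fabp1* (-3.36, SE 0.62, adjusted p = 0.0366, limma) and *Cd36* (-1.91, SE 0.37, adjusted p = 0.0401, limma) were called lower, 2 of 32 genes against 3.51%. In iBECs 0 of 32 genes were called (limma, 2 at an unadjusted p under 0.05) against 0.082%. Differences of more than 1 on the log2 scale in every labelled L1L2_Alb library of a stage were also counted, with no test. In iHBs 7 of the 32 genes were lower by that much (*Cpt1b*, *Acaa2*, *Ehhadh*, *Crot*, *Acsl1*, *Fabp1* and *Cd36*), against 8.99% of all genes, from 1 library, and *Pdk4* was higher by that much, 1 of 32 genes against 5.6%. In iHPs *Fabp1* and *Cd36* were lower, 2 of 32 genes against 8.26%, and 0 of 32 genes were higher against 4.64%. In iBECs 0 of 32 genes were lower against 1.62%, and *Pdk4* and *Acot2* were higher, 2 of 32 genes against 4.19%. In all 5 libraries 7 of the 32 genes lay below the control of the stage, as did 10.1% of all genes. Among the 32 genes the smallest adjusted p for a difference between stages was that of *Cd36* (0.541, limma), whose log2 fold change was -2.82 in iHBs, -1.91 in the iHP libraries and -0.37 in iBECs on average.

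The differentiated cells were then compared with each other and with hepatoblasts over both genotypes. Between iHPs and iHBs 0 of the 32 genes were called, and 0% of all genes (limma, 1158 genes at an unadjusted p under 0.05, 1 of the 32 among them). That gene was *Cd36*, which went from 20.7 RPKM in iHBs to 75.7 RPKM in iHPs in controls and from 2.08 to 16.2 and 23.0 RPKM in the others (2.22, adjusted p = 0.362, limma). Between iBECs and iHPs *Pdk4* and *Acot2* were called, both lower in iBECs, 2 of 32 genes against 4.12% of all genes. Of all these calls 59.5% were higher in iBECs as deposited and 73.1% after upper-quartile scaling, but 355 calls were higher and 632 lower without L1L2_Alb iHP replicate 2. *Pdk4* went from 23.3 to 4.67 RPKM in controls and from 113 and 38.7 to 20.4 and 16.8 RPKM in the others (-1.89, adjusted p = 0.0335, limma). *Acot2* went from 13.2 to 2.90 RPKM in controls and from 18.4 and 21.3 to 8.16 and 8.70 RPKM in the others (-1.38, adjusted p = 0.0297, limma). For both genes each iBEC library lay below each iHP library of its genotype. Both calls were lost without L1L2_Alb iHP replicate 1 or either iBEC library labelled L1L2_Alb, with adjusted p from 0.0671 to 0.111. *Fabp1* had a log2 difference of 2.02 between iBECs and iHPs that did not pass (adjusted p = 0.122, limma). In the libraries labelled L1L2_Alb alone, 2 of each stage, it did pass (2.93, adjusted p = 0.0307, limma). A block by replicate number gave an adjusted p of 0.00138 (limma), but no source used here pairs same-numbered libraries, so no weight is put on that value.

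Of 62 further genes of the pathway listed by role, 57 were tested and 6 were called by genotype (10.5%, near the 9.57% of all genes), 5 lower and 1 higher. Among 18 peroxisomal genes, 2 were called. *Phyh*, which starts the breakdown of phytanic acid, gave 41.4 against 17.05 RPKM in iHBs, 78.1 against 29.1 and 35.4 RPKM in iHPs and 109 against 75.5 and 57.9 RPKM in iBECs, and fell by 1.05 on the log2 scale (adjusted p = 0.0146, limma). *Scp2*, which encodes a thiolase for branched chains, fell by 0.91 (adjusted p = 0.0148, limma) with 5 of 5 libraries lower. Of 10 activation and uptake genes tested, 1 was called. *Slc27a2*, an acyl-CoA synthetase and fatty acid transporter, gave 37.1 against 4.85 RPKM in iHBs, 72.9 against 10.8 and 11.7 RPKM in iHPs and 46.05 against 30.2 and 24.9 RPKM in iBECs. It fell by 1.95 (adjusted p = 0.0155, limma), and all 5 libraries lay below all 3 controls. Among 15 regulators and targets tested, 3 were called. *Creb3l3*, a liver transcription factor of the fasting response, fell by 1.22 (adjusted p = 0.0174, limma). *Rxra*, the partner of PPAR alpha, fell by 1.08 (adjusted p = 0.0295, limma), while the gene of PPAR alpha itself was not called. *Vnn1*, a pantetheinase, rose by 1.82 (adjusted p = 0.0248, limma) with 5 of 5 libraries higher. The 9 further mitochondrial genes held 0 calls (limma, 2 at an unadjusted p under 0.05) with a median of -0.05. *Slc25a17*, a carrier of the peroxisomal membrane, is counted as peroxisomal, and with it the mitochondrial median of 10 genes was -0.007.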

How the data were processed

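RNA of 8 cultures was sequenced with a TruSeq kit. The authors deposited 1 RPKM value per gene and library, not scaled between libraries. No source names the unit, which was read from low values that step with gene length. Bowtie 0.12.2 and mm8 are named in the submitters' processing notes, while the counting tool, annotation and strand of counting are not given in the sources used here. From 23471 entries, 4 whose symbols occur more than once were left out. Reads per library came from the commonest step of short RNA genes of known RefSeq length. Whole reads (within 0.02) were recovered for 14451 of 17774 genes above 0 in at least 4 libraries (81.3%) and for 30 of the 32 genes, at 19 to 14872 reads, and served as a check of depth only, which limits precision by counting error.

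Log2(RPKM + 1) of genes averaging 1 RPKM or more was fitted with limma 3.58.1 in R 4.3.3 (eBayes with trend) as stage plus genotype (4 residual degrees of freedom) or, for differences between stages and for single stages, as 6 conditions (2 residual degrees of freedom). Tests were two-sided with Benjamini-Hochberg adjustment over 13421 genes and a threshold of 0.05. The sources do not say whether libraries of a condition came from separate embryos or cultures, so p-values measure only the spread between these samples, which may be technical. The 2 libraries of a pair differed by more than counting noise (chi-square per degree of freedom 157 in iHPs and 131 in iBECs). On simulated data 200 of 13421 genes differed by genotype. Of those with a log2 change of 2, 80% were called, and of those with a log2 change of 1, 40%. In addition 7 unchanged genes were called. In the data 9.57% of genes were called, and the adjustment depends on the share that changes, so these rates may not hold for the data. The genes, lists and tests were chosen with earlier results of these data known. Library values were to be given for genes called or without overlap between genotypes, and further pathway genes named where called. Library values of *Acsl1*, *Acot2*, *Cpt1a*, *Cpt1b*, *Acaa1b*, *Ehhadh* and *Bdh1* were added after they were seen. The values of 1 further pathway gene are not reported here. Alternatives were a pseudocount of 0.1, upper-quartile scaling, quantile normalization, no filter on low values, leaving out each replicate or stage, and a replicate block. Python 3.11.15, pandas 2.3.3 and matplotlib 3.10.9 were used.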

Additional observations from a re-analysis of the deposited data

Results flagged for a closer look

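In 5 of the 32 genes both libraries labelled L1L2_Alb iHP lay below their control and both labelled L1L2_Alb iBEC above theirs, which was so for 14.4% of all genes tested. The mean log2 fold change in iBECs exceeded that in iHPs by 2.00 for *Cpt1b*, 1.44 for *Acsl1*, 1.42 for *Ehhadh*, 0.45 for *Acaa1a* and 0.34 for *Crat*. The test of a difference between stages (limma) was not passed by any of these 5 genes, with adjusted p of 0.831 for *Cpt1b*, 0.919 for *Acsl1* and 1.00 for the others. No condition had more than 2 libraries, so single libraries far from the rest of their condition were not looked for.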

How the results depend on the processing

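Of 382 values of single genes under alternatives, 324 kept direction and side of the threshold, 33 lost the call, 7 gained it and 18 turned sign. The cause was not tested. The 4 genes called by genotype became 0 without a filter on low values, 0 without iHBs and 1 without iHPs, and ranged from 1 to 3 with single replicates left out. Over all genes the 1284 calls became 686, 326 and 132, with a range of 793 to 1227. Within iHBs, iHPs and iBECs alone (6 conditions, added after seeing the data) 1, 2 and 0 of the 32 genes and 82, 471 and 11 of all genes were called. Between iHPs and iHBs the 0 calls became 2 after upper-quartile scaling, with a range of 0 to 1. Between iBECs and iHPs the 2 called genes became 1 after quantile normalization (*Acot2*), 0 without the filter and 0 to 2 with replicates left out, and the 553 calls over all genes became 211 without the filter, with a range of 156 to 987.

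Same-numbered iHP and iBEC libraries did not deviate together (Pearson's r = -0.0216 across 13421 genes, which are not independent replicates). This check cannot tell whether they came from the same embryo or culture, and the sources do not say. In the libraries labelled L1L2_Alb alone, a replicate block gave 911 calls between iBECs and iHPs, 2 of them among the 32 genes (*Fabp1* and *Pdk4*), and the same libraries without the block gave 457 and 1 (*Fabp1*).

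Signs turned for log2 fold changes near 0. *Slc25a20* became -0.0014 with upper-quartile scaling and -0.0010 with quantile normalization, *Slc22a5* -0.011 with upper-quartile scaling and -0.040 without iBECs, and *Acadm* -0.12 after quantile normalization and -0.014 without iBECs. *Hadhb* became -0.10 and -0.21 under these scalings, -0.023 without iHPs and -0.14 without iBECs, and ranged from -0.045 to 0.018 with replicates left out. *Etfb* became -0.058 and -0.19 under these scalings and ranged from -0.060 to 0.16, *Decr1* became 0.15 without iHBs and ranged from -0.14 to 0.070, and *Acaa1a* became 0.042 without iHPs. With 1 control in a stage, leaving out that control leaves out the stage.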
